A study of Mus musculus with 12 samples.

Results

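A set of 10 genes had levels on a high fat diet (HFD) far below those on chow in white adipose tissue of wild-type (WT) male mice: Cuzd1, Dcdc2a, Bbox1, Cyp2f2, Mmp7, Iyd, Plet1, Clic6, Epcam and Slc27a2. They were chosen by their log2 intensities on the WT arrays, for large mean falls on HFD, from the 19937 genes of the table, so the WT diet difference is given for them as a description and is not tested. The arrays of the mice that carry a knockout of Ahnak (KO) repeat the diet comparison in samples that this ranking did not use. The KO test is not fully separate from the choice, because its estimate of the spread also used the WT arrays. The first 9 genes had the largest falls in WT of all genes, ranks 1 to 9, and Slc27a2 had rank 16. The values just inside the choice were -3.46 for Epcam and -3.14 for Slc27a2 on the log2 scale. Outside it 6 genes fell further than Slc27a2, led by Kcnk1 (-3.33), Adcy8 (-3.32), ccdc198 (-3.32), Acsbg1 (-3.28) and Prom1 (-3.25). On the linear scale the WT HFD mean of the 10 was 2.44% (Cuzd1) to 11.3% (Slc27a2) of the WT chow mean.

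The series holds 12 Affymetrix arrays of 1 colour in 4 groups of 3: KO on HFD, KO on chow, WT on HFD and WT on chow. All mice were male and 18 weeks old, in groups matched for weight, and were fed for 12 weeks, with either regular chow or an HFD of 60% fat and 20% each of protein and carbohydrate. Ahnak encodes a very large scaffold protein at the plasma membrane. The labels do not name the strain, the part of Ahnak that was targeted, the fat depot or whether each array is a separate animal, so p-values measure the spread between these samples, which may be technical.

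Simple epithelia are single sheets of polarised cells that line ducts, tubules and cavities. Their cells are held together by cadherin 1, claudins and EpCAM, contain simple-type keratins, and can carry microvilli or cilia on the free side. Fat depots consist mainly of adipocytes, stromal cells, vessels and immune cells, and are covered by mesothelium, a flat lining that shares keratins with epithelia but has markers of its own.

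Levels stood apart from their group on 2 of the HFD arrays, and the chow arrays were spread as well. On KO HFD replicate 1 the members lay at a median of 47.2% of the KO chow mean on the linear scale, against 6.66% on KO HFD replicate 2 and 6.35% on replicate 3, and against 6.70% to 7.46% of the WT chow mean on the 3 WT HFD arrays. KO HFD replicate 1 was placed between the diets more widely: over the 435 other genes that passed and fell by more than 2-fold in WT, its median position was 36.0% of the way along the WT diet difference, against 85.7% and 89.6% for the other KO HFD arrays. Over the 491 genes that rose by more than 2-fold in WT, the KO HFD arrays lay at 4.05%, 10.4% and 13.7%. Over these rising genes WT HFD replicate 1 stood apart as well, at 55.7%, against 137% and 108% on WT HFD replicates 2 and 3, whereas over the falling genes the WT HFD arrays lay at 92.1% to 106%. Ahnak was at 9.58 on KO HFD replicate 1, the highest of the KO arrays (9.27 to 9.58) and below the WT arrays (9.68 to 10.27). Lep, the leptin gene, which rises with fat mass, was at 12.34, 12.75 and 12.46 on KO HFD replicates 1 to 3, above all KO chow arrays (11.51, 11.84 and 11.85). The adipocyte genes Adipoq (12.45 to 13.33) and Fabp4 (13.03 to 13.34) were high on every array. Counts in KO were also made without KO HFD replicate 1, and counts in WT without WT HFD replicate 1, where 13.5% of all genes were called lower and 13% higher.

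In KO mice all 10 members fell on HFD. The limma test over all 12 arrays, with a Benjamini-Hochberg adjustment over 19937 genes, called 10 of 10 lower at an adjusted p under 0.05, where 3.54% of all genes were called lower. The values are log2 intensities, on which a difference of 1 is 2-fold. The median difference over the members was -3.15 on the log2 scale, beside -0.01 over all genes, and without KO HFD replicate 1 it was -3.95 with 10 members called, where 3.14% of all genes were called lower and 1.97% higher. In bulk tissue fewer cells of a type and less RNA per cell cannot be told apart. For 8 of 10 members every KO HFD array lay below every KO chow array, which held for 13.7% of all genes; for Mmp7 and Clic6 replicate 1 reached above the lowest KO chow array. In WT the 3 HFD arrays lay below the 3 chow arrays for 10 of 10 members (21.6% of all genes), and 12.3% of all genes were called lower, which describes how the members were chosen.

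These calls depended on single arrays. The count of members called was 10 without KO HFD replicate 1 or KO chow replicate 2, but 0 without KO HFD replicate 2, KO HFD replicate 3, KO chow replicate 1 or KO chow replicate 3, where the adjusted p of the 10 members was 0.050 to 0.19, all above the threshold, and 5 without WT HFD replicate 3 or WT chow replicate 1. With only the KO arrays in the fit 1 member, Cyp2f2, passed (adjusted p = 0.010), and the other 9 had an adjusted p of 0.058 to 0.10. The difference was below 0 for every member in each of these fits.

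Among the genes of the cell surface, Epcam encodes the epithelial cell adhesion molecule, a membrane protein of epithelial contacts. It was at 7.53, 4.89 and 5.14 on KO HFD replicates 1 to 3, against 9.33, 8.01 and 8.75 on the KO chow arrays, and at 5.09, 5.01 and 4.95 on the WT HFD arrays, against 8.29, 9.17 and 7.96 on the WT chow arrays. The 3 WT HFD values and 2 of the KO HFD values lay within 4.89 to 5.14, and replicate 1 of KO on HFD lay between them and the chow arrays. Epcam fell by 2.84 ± 0.60 (SE) in KO (limma adjusted p = 0.025), and the difference in WT was -3.46 ± 0.60. Plet1, which encodes a membrane-anchored surface protein of placenta and of epithelial progenitor cells, was at 8.61, 5.45 and 4.86 on KO HFD, against 9.99, 8.79 and 9.94 on KO chow. Its values were 5.40, 6.15 and 5.74 on WT HFD, against 9.13, 10.13 and 8.96 on WT chow. The lowest of these values was on KO HFD replicate 3, and no HFD array reached a chow array of its genotype. It fell by 3.26 ± 0.78 in KO (adjusted p = 0.035) and differed by -3.65 ± 0.78 in WT.

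Clic6 belongs to the chloride intracellular channel family and Dcdc2a encodes a doublecortin-domain protein that binds microtubules of primary cilia. Clic6 was at 7.72, 4.86 and 5.51 on KO HFD, against 9.06, 7.68 and 8.59 on KO chow, and at 5.35, 4.60 and 5.04 on WT HFD, against 8.22, 8.98 and 8.25 on WT chow. Replicate 1 of KO on HFD was just above the lowest KO chow array, replicate 2, while the WT groups did not overlap. The fall of Clic6 in KO was the smallest of the 10 (-2.41 ± 0.61, adjusted p = 0.041), while the WT difference was -3.49 ± 0.61. Dcdc2a was at 8.42, 5.06 and 4.47 on KO HFD, against 10.16, 8.82 and 9.85 on KO chow, and at 4.42, 4.78 and 4.52 on WT HFD, against 8.99, 9.97 and 8.79 on WT chow. It fell by 3.63 ± 0.81 in KO (adjusted p = 0.029), 12.4-fold on the linear scale, and differed by -4.67 ± 0.81 in WT, 25.5-fold.

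**Figure D1:**
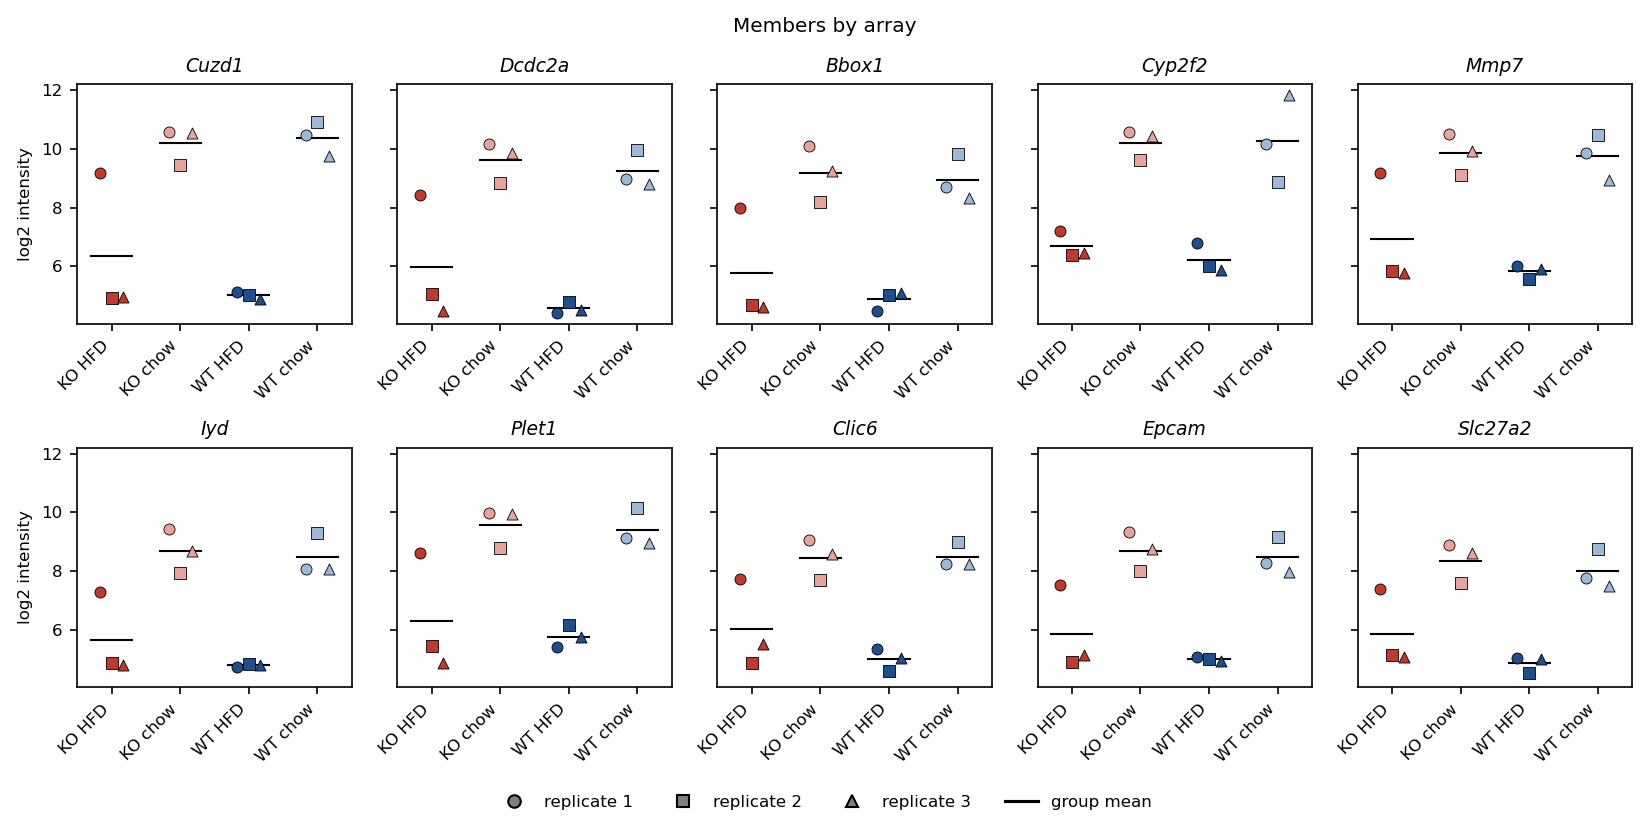
Log2 intensity of each of the 10 members on the 12 arrays, by group; points are arrays, their shape the replicate number, and lines are group means. KO HFD replicate 1 lies near the chow arrays for 9 members (Mmp7 9.17, Cuzd1 9.19), while Cyp2f2 on it (7.20) lies near the other HFD arrays.

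Cuzd1, whose protein has CUB and zona pellucida-like domains and is known from pancreas and uterus, had the largest fall of all genes in both genotypes. It was at 9.19, 4.92 and 4.94 on KO HFD, against 10.57, 9.45 and 10.55 on KO chow, and at 5.13, 5.03 and 4.90 on WT HFD, against 10.47, 10.91 and 9.77 on WT chow. The 5 low HFD arrays lay within 4.90 to 5.13, and the sixth, KO HFD replicate 1, lay just under the lowest KO chow array. Cuzd1 fell by 3.84 ± 0.90 in KO (adjusted p = 0.034), to 6.97% of the KO chow level on the linear scale. The WT difference was -5.36 ± 0.90, which leaves 2.44% of the WT chow level. Mmp7, the gene of matrilysin, a secreted matrix metalloproteinase of epithelia, was at 9.17, 5.85 and 5.77 on KO HFD, against 10.50, 9.12 and 9.93 on KO chow. Its WT values were 6.01, 5.56 and 5.92 on HFD, against 9.85, 10.47 and 8.93 on chow. Mmp7 fell by 2.93 ± 0.77 in KO (adjusted p = 0.047), the highest adjusted p of the 10, and had a WT difference of -3.92 ± 0.77.

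The other 4 members are enzymes. Bbox1 makes carnitine from gamma-butyrobetaine and is active in liver and kidney. It was at 7.99, 4.70 and 4.60 on KO HFD, against 10.10, 8.20 and 9.24 on KO chow, and at 4.48, 5.04 and 5.11 on WT HFD, against 8.70, 9.82 and 8.33 on WT chow. Bbox1 fell by 3.42 ± 0.80 in KO (adjusted p = 0.034), with a WT difference of -4.08 ± 0.80. Slc27a2, a very long chain acyl-CoA synthetase and fatty acid transport protein of liver and kidney, was at 7.40, 5.12 and 5.06 on KO HFD, against 8.87, 7.59 and 8.61 on KO chow. In WT it was at 5.02, 4.54 and 5.02 on HFD, against 7.77, 8.73 and 7.50 on chow. Replicate 1 of KO on HFD lay just under the lowest KO chow array, and the other HFD arrays lay at or below 5.12. Slc27a2 fell by 2.50 ± 0.57 in KO (adjusted p = 0.032), and the WT difference was -3.14 ± 0.57.

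Iyd, the iodotyrosine deiodinase that recovers iodide in the thyroid, was at 7.27, 4.87 and 4.81 on KO HFD, against 9.43, 7.94 and 8.68 on KO chow, and at 4.72, 4.84 and 4.80 on WT HFD, against 8.06, 9.29 and 8.05 on WT chow. Its WT HFD arrays were the tightest of any member, within 0.12. Iyd fell by 3.04 ± 0.60 in KO (adjusted p = 0.022) and had a WT difference of -3.68 ± 0.60. Cyp2f2, a cytochrome P450 known from club cells of the airway, was at 7.20, 6.40 and 6.46 on KO HFD, against 10.59, 9.63 and 10.43 on KO chow. Its WT values were 6.79, 5.999 and 5.86 on HFD, against 10.16, 8.86 and 11.82 on chow. All 3 KO HFD arrays of Cyp2f2 were low, and its chow arrays were spread most widely, over 2.96. The fall of Cyp2f2 in KO, 3.53 ± 0.59, had the lowest adjusted p of the 10 (0.014), beside a WT difference of -4.07 ± 0.59.

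**Figure D2:**
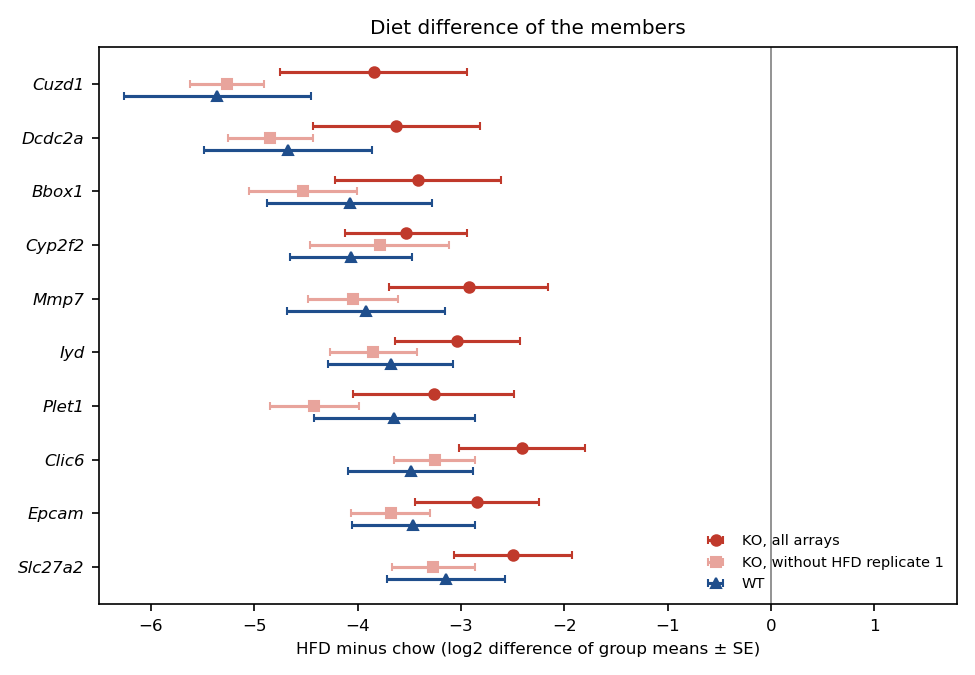
HFD minus chow for each member in log2 units, as the difference of group means ± SE of the limma fit, for KO with all arrays, for KO without HFD replicate 1, and for WT. The KO differences run from -3.84 (Cuzd1) to -2.41 (Clic6), and without replicate 1 from -5.26 to -3.25; the WT values chose the members.

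Without KO HFD replicate 1 the falls in KO were larger for every member and their adjusted p was 0.00034 to 0.016. Cuzd1 then had -5.26 (adjusted p = 0.00034), Dcdc2a -4.84 (0.0011), Plet1 -4.42 (0.0025) and Cyp2f2 -3.79 (0.016). On replicate 1 itself Mmp7 kept 62.2% of its KO chow mean on the linear scale, Clic6 60.6%, Cuzd1 50% and Iyd 37.5%, while Cyp2f2 kept 12.3%. On the mean of KO HFD replicates 2 and 3, the 10 members lay at 2.60% to 10.5% of the KO chow mean. On 1 of the 3 KO HFD arrays, the 9 members other than Cyp2f2 differed from the KO chow mean by -1.42 to -0.68, and on the mean of the other 2 arrays by -5.26 to -3.25.

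Between genotypes the chow arrays of the members overlapped. KO minus WT on chow ran from -0.19 (Cuzd1) to 0.36 (Dcdc2a), each smaller than its SE of 0.57 to 0.90. On HFD the KO minus WT difference, with KO HFD replicate 1 included, ran from 0.47 (Cyp2f2) to 1.41 (Dcdc2a). Choosing genes for low WT HFD levels raises this difference, and the share of all genes above 0 was not counted. KO HFD replicate 1 lay above every WT HFD array for every member, whereas replicates 2 and 3 had Epcam at 4.89 and 5.14 and Cuzd1 at 4.92 and 4.94, beside WT ranges of 4.95 to 5.09 and 4.90 to 5.13. On the mean of KO HFD replicates 2 and 3, Plet1 lay at 5.16 and Dcdc2a at 4.77, beside WT HFD means of 5.76 and 4.57. Without replicate 1 the sign thus differed between members. These comparisons share the WT arrays that chose the members, so they are not tested.

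The members varied together within a diet, with 1 exception. Over the 6 chow arrays each member spanned 1.35 to 2.96 log2 units. For 9 members, all but Cyp2f2, the 3 highest chow arrays were KO replicates 1 and 3 and WT replicate 2. The 36 pairs among these 9 had Pearson's r of 0.77 to 0.999 (median 0.94) over the 6 chow arrays, which share both their labelling and their scaling with every gene. Cyp2f2 had r of -0.50 to -0.13 with the other 9 over the same arrays: it was highest on WT chow replicate 3 (11.82), where Epcam, Mmp7, Dcdc2a and Slc27a2 were lowest, and lowest on WT chow replicate 2 (8.86). Over the 6 HFD arrays r was 0.83 to 0.997 among the 9, a spread set mostly by KO replicate 1, and 0.56 to 0.83 for Cyp2f2. Over all 12 arrays, each of the 9 followed the mean of the other members with r of 0.985 to 0.996, and Cyp2f2 with 0.858.

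The promoters of the members were searched for short motifs that the rule did not use, since 9 of them had parallel levels. RefSeq promoters of assembly GRCm38.p6, 250 bases before to 50 after a gene's start, were at hand for 9 of the members, 10 windows in all with 2 for Mmp7; Clic6 was not matched. CACCTG, the E-box read by the epithelial repressors of the ZEB and SNAI families, was found on either strand in 5 windows (Dcdc2a, Epcam, Mmp7, Plet1 and Slc27a2), against 20.2% of 32851 promoters. TATAAA was found in 4 windows (Bbox1, Iyd, Mmp7 and Plet1), against 13.6%, and it began 26 to 30 bases before the start in Iyd, Mmp7 and Plet1. AGGAAG, an ETS family core, was in 3 (35.4% of all), CCAAT in 4 (37.4%) and TGTTTAC, a FOXA core, in 1 (3.65%). AACCNGGTT, the paired site of the GRHL family, and the HNF1 core were in none of the 10 (0.271% and 0.0609% of all). The windows of Slc27a2 and Dcdc2a held 25 and 24 CpG and the others 0 to 11, with a median of 7 over all promoters. The E-box and the other motifs searched, each on both strands, do not contain each other. A match describes letters, not a bound site. The windows of the gene with the largest fall, of the member with its own chow pattern and of 2 surface genes with the E-box are printed, 5′ to 3′ on the gene's strand, with each matched motif in capitals: for Cuzd1 chr7:131322243-131322542 (minus strand), for Cyp2f2 chr7:27119705-27120004, for Plet1 chr9:50494275-50494574 and for Epcam chr17:87635729-87636028 (plus strand).
Cuzd1: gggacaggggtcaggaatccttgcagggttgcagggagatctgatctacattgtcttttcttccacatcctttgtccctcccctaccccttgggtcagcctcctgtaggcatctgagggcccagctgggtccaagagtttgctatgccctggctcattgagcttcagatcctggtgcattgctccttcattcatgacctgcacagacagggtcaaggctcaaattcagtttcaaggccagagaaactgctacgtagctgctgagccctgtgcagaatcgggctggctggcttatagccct
Cyp2f2: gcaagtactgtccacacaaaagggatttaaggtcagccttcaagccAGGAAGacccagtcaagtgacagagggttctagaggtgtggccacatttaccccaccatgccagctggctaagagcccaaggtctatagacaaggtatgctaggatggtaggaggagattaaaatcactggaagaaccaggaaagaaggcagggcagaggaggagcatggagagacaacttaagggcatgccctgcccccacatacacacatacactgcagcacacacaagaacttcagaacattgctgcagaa
Plet1: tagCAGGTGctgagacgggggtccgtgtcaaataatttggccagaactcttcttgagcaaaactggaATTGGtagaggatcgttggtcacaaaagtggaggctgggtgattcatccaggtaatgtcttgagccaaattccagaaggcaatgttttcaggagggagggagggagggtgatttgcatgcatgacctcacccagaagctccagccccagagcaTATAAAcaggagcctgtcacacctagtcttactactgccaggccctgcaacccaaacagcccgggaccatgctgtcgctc
Epcam: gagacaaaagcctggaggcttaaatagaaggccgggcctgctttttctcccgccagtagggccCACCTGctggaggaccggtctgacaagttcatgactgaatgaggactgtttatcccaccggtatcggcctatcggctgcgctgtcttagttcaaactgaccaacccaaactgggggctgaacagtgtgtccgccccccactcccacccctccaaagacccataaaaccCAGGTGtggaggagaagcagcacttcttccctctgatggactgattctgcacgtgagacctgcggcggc
None of the searched motifs is in the Cuzd1 window. In Cyp2f2 the capitals are the ETS core, in Plet1 the E-box, a CCAAT box on the minus strand and the TATA box, and in Epcam the E-box on either strand, 187 and 19 bases before the start.

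Of the genes that mark simple epithelium, many fell on HFD in both genotypes. Of 37 genes on this list, which holds no member, 35 were measured. In KO 19 fell, 0 rose and 16 did not pass (3.54% of all genes fell and 2.8% rose), with a median of -0.88, and 19 fell without KO HFD replicate 1 as well. The list was not counted without any other KO array. Over all genes, 705 falls were called in KO. There were 23 to 97 without KO HFD replicate 2 or 3 or KO chow replicate 1 or 3, and 962 without KO chow replicate 2. In WT 24 fell, 0 rose and 11 did not pass (12.3% and 11.8% of all genes), with a median of -0.97, and 22 fell without WT HFD replicate 1. The genes that fell in both genotypes were 18. Prom1, the apical membrane protein prominin 1, fell in KO (-2.54 ± 0.51, limma adjusted p = 0.022) and in WT (-3.25 ± 0.51, 0.002). Cdh16, a cadherin of kidney and thyroid epithelium, fell in KO (-2.72 ± 0.57, 0.025) and in WT (-3.15 ± 0.57, 0.0034). The WT falls of Prom1 and Cdh16 ranked 14 and 15 of all genes, next to the members. The list was chosen with earlier results of these data known, so neither its KO nor its WT values and counts are separate from the choice. The epithelial transcription factor Elf3 had -1.81 ± 0.41 in KO and -2.31 ± 0.41 in WT, and the epithelial splicing factor Esrp1 had -1.23 ± 0.22 in KO and -1.21 ± 0.22 in WT, all past the test. Other genes of the list, named after their values were seen, passed in neither genotype. Krt7 had 0.09 ± 0.36 in KO and -0.09 ± 0.36 in WT, and Krt19 had -0.71 ± 0.46 and -0.72 ± 0.46. Grhl1 had 0.30 ± 0.12 in KO and -0.15 ± 0.12 in WT. The mean of the list was 6.53, 6.03 and 5.89 on KO HFD replicates 1 to 3, against 6.68 to 7.32 on KO chow, and 5.86 to 6.02 on WT HFD, against 6.66 to 7.28 on WT chow. Prom1 was at 7.14, 5.21 and 4.99 on KO HFD replicates 1 to 3, against 8.95, 7.68 and 8.31 on KO chow, so that replicate 1 was again between the others and chow.

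Markers of the mesothelium mostly did not pass. Of 20 measured markers Krt8 and Krt18, which are on both lists, fell in KO (-1.74 and -1.54) and 18 did not pass, where 3.54% of all genes fell. In WT these keratins (-1.84 and -1.61) and Bcam (-0.69), a laminin-binding adhesion molecule, fell and 17 did not pass, where 12.3% of all genes fell. Leaving out the keratins, 17 markers had a median of -0.14 in KO and -0.28 in WT. Msln, mesothelin, had -0.06 ± 0.42 in KO (adjusted p = 0.95) and 0.04 ± 0.42 in WT (0.97), and Upk3b, a uroplakin, -0.17 ± 0.41 in KO (0.85) and -0.39 ± 0.41 in WT (0.55). The mean of the mesothelial list lay at 7.92 to 8.65 on KO HFD, against 8.21 to 9.06 on KO chow, and at 7.99 to 8.68 on WT HFD, against 8.25 to 9.18 on WT chow, so the groups overlapped. Msln and Upk3b were chosen after their values were seen, as the most used markers of the list.

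**Figure D3:**
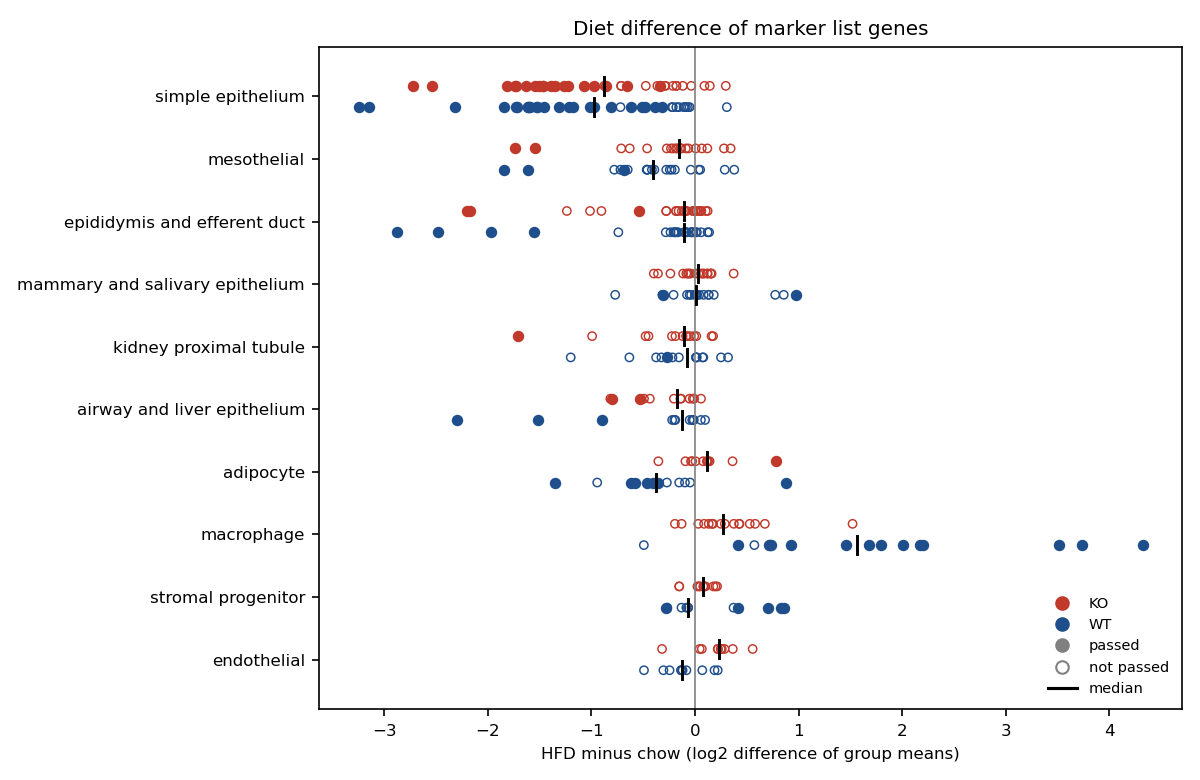
HFD minus chow in log2 units for the genes of 10 cell type marker lists, KO above WT in each row; filled points passed limma at an adjusted p under 0.05 and black bars are list medians. The median of the simple epithelium list lies left of 0 in both genotypes (-0.88 in KO and -0.97 in WT), and that of the macrophage list right of 0 (0.27 in KO and 1.57 in WT), with single genes of both lists on the other side.

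Lists for other epithelia that such a sample could hold were counted in the same way. Of 25 measured genes of epididymis and efferent duct, Slc9a3, Pdzk1 and Erbb4 fell in KO and 22 did not pass, and Adgrg2, Slc9a3, Cftr and Pdzk1 fell in WT and 21 did not pass (3.54% of all genes fell in KO and 12.3% in WT). Without KO HFD replicate 1 Erbb4 no longer passed (adjusted p = 0.095). Slc9a3, a sodium-proton exchanger of apical membranes, had -2.20 ± 0.55 in KO (limma adjusted p = 0.041) and -2.48 ± 0.55 in WT (0.0087). Pdzk1, an apical scaffold protein, had -2.17 ± 0.52 in KO and -1.97 ± 0.52 in WT. Adgrg2, an adhesion receptor of the efferent ducts, was at 9.75, 8.52 and 8.71 on KO HFD, against 10.64, 9.76 and 10.28 on KO chow (-1.24 ± 0.46, adjusted p = 0.14), and at 8.38, 6.69 and 6.56 on WT HFD, against 9.84, 10.42 and 10.01 on WT chow (-2.88 ± 0.46, 0.0021; interaction adjusted p = 0.23). Cftr, the chloride channel, had -1.01 ± 0.36 in KO (0.12) and -1.56 ± 0.36 in WT (0.01). The 8 genes of epididymal and seminal vesicle secretions Lcn5, Lcn8, Lcn9, Lcn10, Gpx5, Svs2, Svs4 and Svs5, named after their values were seen, spanned no more than 0.81 over all 12 arrays, and Lcn5 stayed at 4.41 to 4.75. Adam7 of the same list, also named after its values were seen, spanned 1.66. It was at 3.74 to 3.93 on the HFD arrays of both genotypes, against 4.04 to 5.40 on chow. Its differences did not pass (-0.90 ± 0.26 in KO, limma adjusted p = 0.067, and -0.74 ± 0.26 in WT, 0.064). The table has no detection calls, so whether these genes were above background was not tested. The mean of the list of 25 was 4.48 to 4.68 on KO HFD, against 4.85 to 4.96 on KO chow, and 4.40 to 4.48 on WT HFD, against 4.83 to 4.93 on WT chow, lower on every HFD array than on any chow array. Its median difference was -0.10 in KO and in WT, so single genes such as Slc9a3 weigh on the mean. The part of such cells in the levels of the members was not tested.

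In the mammary and salivary list 0 of 19 passed in KO, with 1 gene rising, Krt14 (0.98 ± 0.16), and 1 falling, Aqp5 (-0.31 ± 0.08), in WT, and 2 each way without WT HFD replicate 1. Over all genes 3.54% fell and 2.8% rose in KO, and 12.3% fell and 11.8% rose in WT. Of 14 kidney tubule genes only Lrp2, the endocytic receptor megalin, fell in KO (-1.71 ± 0.43, adjusted p = 0.039), and only Slc5a2 fell in WT (-0.27 ± 0.09, 0.041); Lrp2 had -1.20 ± 0.43 there (0.063). Without WT HFD replicate 1 the kidney list had 1 rise and 1 fall in WT. From the list for airway and liver, Foxj1, the master regulator of motile cilia, fell in KO (-0.80 ± 0.20) and in WT (-0.89 ± 0.20), Ttr fell in KO (-0.53 ± 0.14), and Alb (-1.52 ± 0.36) and Cyp2e1 (-2.30 ± 0.62) fell in WT. Scgb1a1, the secretoglobin that defines the airway club cells in which Cyp2f2 is known, stayed at 3.21 to 3.61 on the 12 arrays; it was chosen after its values were seen. The mean of the kidney list was 5.11 to 5.28 on KO HFD, against 5.30 to 5.57 on KO chow, and that of the airway and liver list 5.58 to 5.70 on KO HFD, against 5.86 to 6.003 on KO chow. Their median diet differences were -0.10 for kidney and -0.17 for airway and liver in KO, so single genes such as Lrp2 weigh on the means. The mean of the mammary and salivary list overlapped between diets, at 5.62 to 5.76 on KO HFD, against 5.59 to 5.75 on KO chow.

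Macrophage markers moved the other way in WT. Of 16 markers 14 rose and 2 did not pass in WT (11.8% of all genes rose; median 1.57), and 0 passed in KO (2.8% rose; median 0.27), where limma had 4547 genes of 19937 at an unadjusted p under 0.05. Without WT HFD replicate 1 15 rose and 1 fell in WT. Itgax, an integrin of adipose macrophages, had 0.58 ± 0.46 in KO and 3.73 ± 0.46 in WT (limma interaction adjusted p = 0.081). The mean of the macrophage list was 8.92 to 9.08 on KO HFD, against 8.51 to 8.82 on KO chow, and 9.90, 11.19 and 10.77 on WT HFD replicates 1 to 3, against 8.76 to 9.19 on WT chow. On KO HFD replicates 2 and 3, where the list mean was 8.92 and 9.08, the mean of the members, centred per gene, was -2.23 and -2.28, and on WT HFD it was -2.29 to -2.20. Of 13 adipocyte genes Lep rose in KO (0.78 ± 0.12, limma adjusted p = 0.012) and 12 did not pass. In WT Lep rose (0.88 ± 0.12) and 6 fell, where 12.3% of all genes fell, among them Slc2a4 (-1.35 ± 0.33), Cebpa (-0.62 ± 0.13) and Plin1 (-0.46 ± 0.10). Of 11 stromal progenitor and 10 endothelial genes 0 passed in KO, and in WT 4 stromal genes such as Fn1 (0.86 ± 0.15) rose, 1 fell and 0 endothelial genes passed. The part of these cell types in the levels of the members was not tested.

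**Figure D4:**
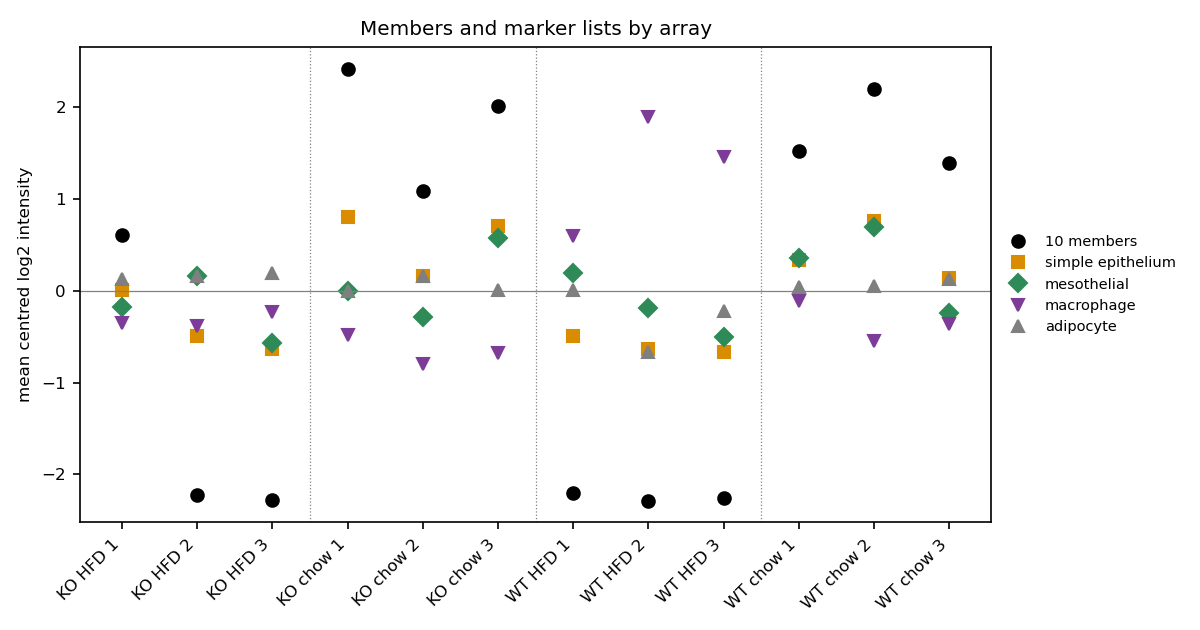
Mean log2 intensity, centred per gene over the 12 arrays, of the 10 members and of 4 marker lists on each array. The members lie between -2.29 and -2.20 on 5 HFD arrays and at 0.61 on KO HFD replicate 1, against 1.08 to 2.42 on the chow arrays.

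The relatives and pathway partners of the members were counted against the shares of all genes that fell (3.54% in KO and 12.3% in WT) and rose (2.8% in KO and 11.8% in WT). Beside Slc27a2, 15 genes of fatty acid transport and activation were measured. Acsbg1, an acyl-CoA synthetase, fell in KO (-2.55 ± 0.60, limma adjusted p = 0.035) and in WT (-3.28 ± 0.60). Acsl5 rose in both (0.37 ± 0.08 in KO and 0.58 ± 0.08 in WT), and 13 did not pass in KO. Without KO HFD replicate 1 Acsl5 did not pass (limma adjusted p = 0.053), at a difference of 0.37. In WT 4 rose and 4 fell, including Acsm3 (-2.92 ± 0.47) and Acsm5 (-1.83 ± 0.28). Of 9 genes of carnitine synthesis and its shuttle, the setting of Bbox1, 0 passed in KO, and in WT Cpt1a (0.66 ± 0.10) and Slc22a4 (0.45 ± 0.12) rose while Cpt2 (-0.35 ± 0.11) and Slc22a21 (-0.33 ± 0.11) fell. Around Iyd, 14 thyroid hormone genes held a rise of Slc16a10 (0.51 ± 0.12) and a fall of Ttr in KO. Without KO HFD replicate 1 neither passed (limma adjusted p = 0.054 and 0.14), at differences of 0.52 and -0.43. In WT Thrsp (-1.53 ± 0.31) and Thra (-0.54 ± 0.15) fell, with 2 rises and 2 falls without WT HFD replicate 1.

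The 4 measured relatives of Clic6 gave 0 calls in KO, and in WT Clic4 (0.57 ± 0.09) and Clic1 (1.09 ± 0.25) rose and Clic5 (-0.71 ± 0.14) fell. Among 11 partners and relatives of EpCAM, 3 fell in KO: Cldn7, a claudin that binds EpCAM (-1.26 ± 0.29), Cd82, a tetraspanin (-0.73 ± 0.16), and the protease St14 (-0.98 ± 0.19). Without KO HFD replicate 1 there were 4, with Spint2, a protease inhibitor (-1.54, adjusted p = 0.048, against 0.076 with all arrays). In WT 3 fell, Cldn7 (-1.31 ± 0.29), Cd82 (-0.89 ± 0.16) and Spint2 (-1.61 ± 0.38), and 5 rose, among them Cd44 (2.03 ± 0.26), Adam17 (0.94 ± 0.15) and Adam10 (0.51 ± 0.09). St14 did not fall in WT (0.31 ± 0.19, limma adjusted p = 0.30). Of 16 other matrix metalloproteinases and their inhibitors 0 passed in KO, and 5 rose and 1 fell in WT, with Mmp12 (4.32 ± 0.47), Timp1 (2.55 ± 0.45), Mmp3 (2.10 ± 0.51) and Mmp19 (0.97 ± 0.13) higher, and 8 rose and 3 fell without WT HFD replicate 1. Of 9 other P450 genes of the same family, 0 passed in KO, while in WT Cyp2d22 (-1.19 ± 0.17), Cyp2e1 and Cyp2b10 (-0.45 ± 0.14) fell and Cyp2r1 (0.68 ± 0.14) rose.

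The genes whose levels were most like those of the members were sought among 3181 genes with an SD of at least 0.3 over the 12 arrays, by Pearson's r with the mean of the members, as a description of arrays that share diet and scaling. The 15 closest had r of 0.989 to 0.996. Closest were Cdh16 (0.996), Adcy8, an adenylyl cyclase (0.996), Prom1 (0.994), Rsph4a, a radial spoke protein of motile cilia (0.993), and Cldn2, a claudin that forms cation pores (0.993). Next came Mia2, which acts in export from the endoplasmic reticulum (0.992), Acsbg1 (0.992), ccdc198 (0.991), the glycine transporter Slc6a9 (0.991) and Scnn1a, a subunit of the epithelial sodium channel (0.991). The potassium channel Kcnk1, the brush border cadherin Cdhr5, the peroxisomal oxidase Pipox, the anion exchanger Slc26a3 and Pklr, the pyruvate kinase of liver and red cells, followed at 0.989 to 0.991. Rsph4a was at 6.71, 4.33 and 4.14 on KO HFD replicates 1 to 3, against a KO chow mean of 7.73, and had means of 4.33 on WT HFD and 7.45 on WT chow. Cldn2 was at 7.32, 4.80 and 4.63 on KO HFD, against a KO chow mean of 8.15, with means of 4.87 on WT HFD and 7.92 on WT chow. Both genes were chosen for this likeness, so their order over the arrays follows from the choice.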

How the data were processed

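White adipose tissue RNA of 12 samples was hybridised to 1-colour arrays. Biotin-labelled target was made with a whole transcript sense kit, per the labels' protocols, and the submitters' processing notes name affy without a version; how background and scale were treated is not stated in those sources. Values deposited by the authors are log2 intensities in 34760 rows (base 2 by their range, 2.09 to 14.2). Array medians lay at 5.78 to 5.92, close enough to show a common scale. The platform annotation named 21640 rows by 1 symbol, 1321 by several and 11799 not at all; 21553 matched RefSeq (GRCm38.p6) by Entrez identifier. The row with the highest mean stood for a gene with several, which left 19937 genes; each member had 1 row. No filter on dim rows was used and no depth applies; the number of arrays limits precision.

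A mean per group was fitted to all 12 arrays with limma 3.58.1 (R 4.3.3, lmFit and eBayes, 8 residual degrees of freedom), with two-sided tests; calls were made at 0.05 after Benjamini-Hochberg adjustment over 19937 genes. The fit was tested on simulated data with the same spread for every gene and group and no outlying array. That setting does not cover members such as Cuzd1, with an SD of 2.46 on KO HFD and 0.11 on WT HFD. Members, gene lists and motifs were chosen with earlier results of these data known. Named genes were all members, the 5 largest falls outside them in WT, the 15 genes most like the members, and up to 4 genes per list that passed with the smallest p (2 where none passed); others are marked in the text or complete a count. Alternatives were the compared groups alone, a replicate block, array weights, a variance trend, no dim rows, averaged rows, quantile normalization and each array left out. List counts leaving out replicate 1 of KO on HFD, or of WT on HFD, were added after seeing the data.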

Additional observations from a re-analysis of the deposited data

Results flagged for a closer look

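Of 13 measured adipocyte genes, Plin4 and Lipe were picked because HFD arrays all lay above chow in KO and below it in WT. The share of all genes with this pattern was not counted, so how rare it is was not tested. In WT every HFD array lay below every chow array for 21.6% of all genes. Plin4, a perilipin of lipid droplets, was at 12.10, 12.05 and 12.10 on KO HFD, against 11.63, 11.81 and 11.72 on KO chow, and at 11.79, 10.78 and 11.44 on WT HFD, against 11.88, 11.87 and 12.01 on WT chow. The difference between its diet effects was 0.94 ± 0.27 (SE), which did not pass (limma interaction adjusted p = 0.12). Lipe, the hormone-sensitive lipase, was at 12.68, 12.63 and 12.62 on KO HFD, against 12.47, 12.61 and 12.52 on KO chow, and at 12.43, 11.82 and 12.22 on WT HFD, against 12.57, 12.50 and 12.62 on WT chow. In KO the lowest HFD array of Lipe (12.62) lay just above its highest chow array (12.61). Its difference between diet effects was 0.52 ± 0.17, which did not pass either (limma interaction adjusted p = 0.17).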

How the results depend on the processing

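In KO the difference of HFD against chow was below 0 for the 10 members in all 190 values that the alternatives gave. The count of 10 members called became 1 with only the compared groups and lay between 0 and 10 over the 12 fits that left out an array; it was 9 or 10 under the other settings. The count of genes called in KO, 1264, became 585 with only the compared groups, 740 with a replicate block and 2137 with array weights, and lay between 62 and 1509 without single arrays (62 without KO HFD replicate 3, 140 without KO chow replicate 1). The count in WT, 4802, became 9985 with array weights and lay between 3072 and 5285 without single arrays. Without KO HFD replicate 1 the calls in KO went to 1 for airway and liver epithelium and for fatty acid transport and to 0 for thyroid hormone and iodide, and the other 14 lists kept counts within 1.5 times. Without WT HFD replicate 1 the calls in WT went to 4 of mammary and salivary epithelium, 2 of kidney, 4 of thyroid hormone and iodide and 11 of the matrix metalloproteinases, and 13 lists kept theirs within 1.5 times. Replicate numbers are shared by the groups, and the labels do not say whether they pair the arrays. Same-numbered arrays deviated with r of -0.41 to 0.38, above 0.1 in 4 of 18 pairs. An array correlated best with its own number in 10 of 36 cases. This showed no clear pairing, which 3 arrays per group cannot settle. With the replicate block 9 members passed, without Plet1 (limma adjusted p = 0.054). Causes of these shifts were not tested. The table holds no detection calls, so the lowest levels of the members could not be set against background.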
